A study of Saccharomyces cerevisiae with 12 samples.

Results

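The genes of ribonucleotide reductase and *HUG1* are a set of 5 yeast genes, *RNR1* (YER070W, chromosome V), *RNR2* (YJL026W, chromosome X), *RNR3* (YIL066C, chromosome IX), *RNR4* (YGR180C, chromosome VII) and *HUG1* (YML058W-A, chromosome XIII). They were picked out of the expression table by ORF name. All 5 had a value on every array, out of 5769 genes with values. Expression was profiled on 1-color NimbleGen arrays in a strain that lacks *TUP1* (*tup1Δ*), taken from the yeast deletion collection, and in the WT strain BY4741 (*MATa his3Δ1 leu2Δ0 met15Δ0 ura3Δ0*), which is its background. Cells of either strain, in mid-log growth in YPD at 30°C, received 100 nM rapamycin, which blocks TOR complex signaling, or 0.1% of the solvent DMSO as control, for 30 min. There were 2 arrays of *tup1Δ* in rapamycin, 2 of *tup1Δ* in DMSO, 4 of WT in rapamycin and 4 of WT in DMSO, and every WT culture had been divided between the treatments. The deletion was represented by 1 strain, so an effect of *TUP1* and any other difference of that strain cannot be told apart.

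Ribonucleotide reductase converts ribonucleotides to deoxyribonucleotides and limits the supply of dNTPs for DNA replication and repair. In yeast, *RNR1* encodes the main large subunit and *RNR3* a second large subunit that is strongly induced by DNA damage, while *RNR2* and *RNR4* encode the partners of the small subunit. *HUG1* encodes a small protein that inhibits the enzyme through its small subunit and is also induced by DNA damage. The repressor Crt1 (also called Rfx1) binds upstream of *RNR2*, *RNR3*, *RNR4*, *HUG1* and its own gene and recruits the Tup1-Cyc8 co-repressor. The checkpoint kinases Mec1, Rad53 and Dun1 relieve this repression when DNA is damaged or replication stalls. *RNR1* is mainly under cell cycle control by MBF, the activator of G1/S genes.

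The values are log2 signals after Robust Multi-array Average (RMA) normalization by the authors. An RNA level can thus be compared between arrays for 1 gene but not between genes. Where a group mean is placed among those of all genes, this describes the array signal only. *TUP1* itself read between 7.95 and 8.23 on the 4 *tup1Δ* arrays and between 13.66 and 14.04 on the 8 WT arrays. *LEU2*, *MET15* and *URA3*, which BY4741 lacks, read between 7.85 and 8.06 on all 12 arrays. Together these readings of absent genes mark the low end of the array, from 7.85 to 8.23. Of the MATa genes *MFA1*, *MFA2*, *STE2*, *STE6* and *BAR1*, all had group means of 9.84 or more, while of the MATalpha genes *MF(ALPHA)1* and *STE3* had group means of at most 8.16, *MF(ALPHA)2* had group means between 8.51 and 8.88, above the absent genes, and *SAG1* lay between 11.80 and 12.66. *MFA1* was lower in *tup1Δ* than in WT in both treatments (log2 fold change -1.56 in DMSO and -1.04 in rapamycin), and *BAR1* had -0.92 and -1.08. The WT arrays of replicates 3 and 4 were nearly identical within a treatment (SD of the differences across genes 0.0643 in rapamycin and 0.0647 in DMSO), whereas replicates 1 and 2 differed by 0.214 in rapamycin and 0.110 in DMSO, and arrays across these pairs by 0.243 to 0.287. The sources used here name no batch for these pairs, and values with either pair alone are given where they bear on a result.

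Deletion of *TUP1* was accompanied by higher levels of 4 of the 5 genes, in 2 tiers. In DMSO, *HUG1* was 5.85-fold and *RNR3* 5.34-fold higher in *tup1Δ*, and both genes of the small subunit were close to a doubling, *RNR2* at 1.92-fold and *RNR4* at 1.89-fold. *RNR1* had a ratio of 1.06 and did not pass the test. The 12 arrays entered a single limma fit, and a gene was called where its Benjamini-Hochberg adjusted p over all genes was under 0.05 and its log2 fold change reached 1 in size. By this rule 2 of the 5 genes, *HUG1* and *RNR3*, were called higher, where 4.13% of all genes were. At an adjusted p under 0.05 with no fold threshold there were 4 of 5, where 15.3% of all genes were higher and 27.3% were lower. The median log2 fold change of the 5 genes was 0.94, beside -0.078 over all genes.

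**Figure D1:**
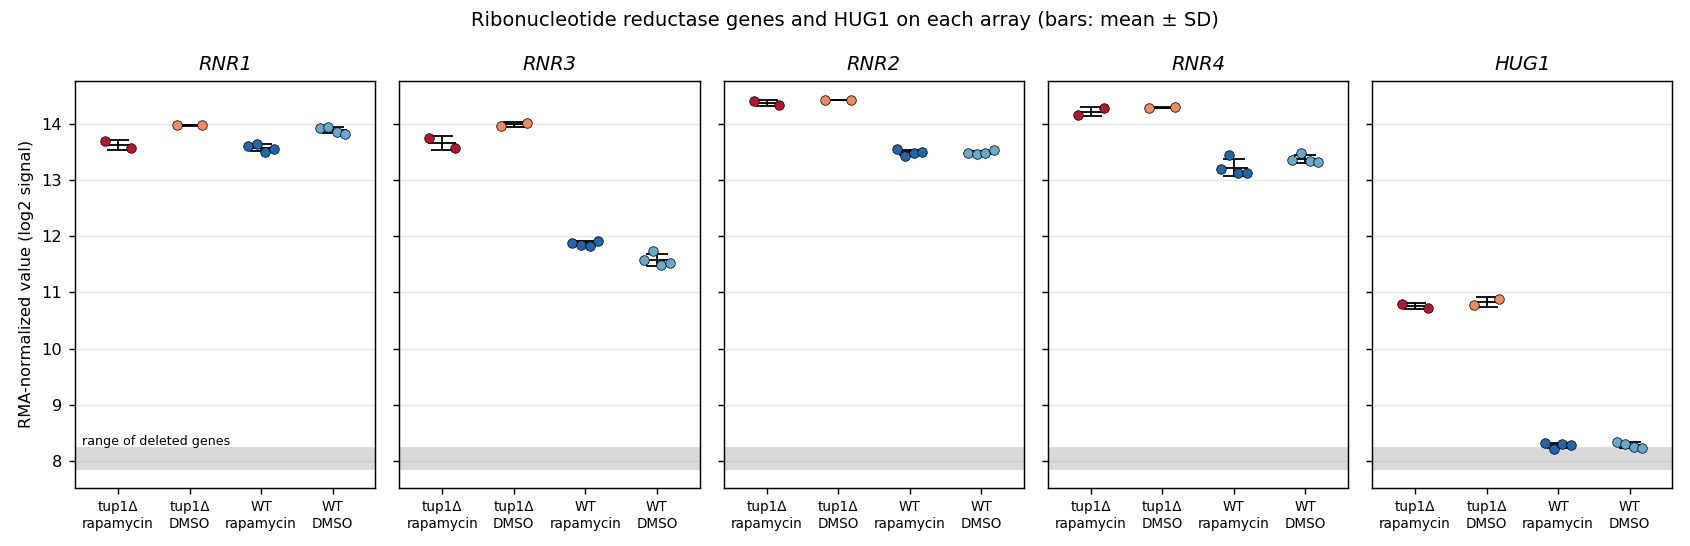
RMA-normalized log2 signal of each gene (panels) on each of the 12 arrays, by group, with the mean and SD as bars and the range of readings of absent genes as a grey band. *RNR3*, *RNR2*, *RNR4* and *HUG1* lie higher on all *tup1Δ* arrays than on all WT arrays, *RNR1* of the strains overlaps in rapamycin, and *HUG1* in WT sits at the edge of the band.

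Of the large subunit genes, *RNR1* read 13.98 and 13.97 in *tup1Δ* in DMSO, against 13.92, 13.95, 13.86 and 13.82 in WT in DMSO. The *tup1Δ* values lay just above the WT values, with a log2 fold change of 0.089 (95% confidence interval -0.045 to 0.22, adjusted p = 0.266 from limma). The interval excludes a doubling of the signal. The *RNR1* group means were above those of 94.5% of genes in WT and 95.1% in *tup1Δ*, where array signals can be compressed and changes understated. With WT replicates 3 and 4 alone the log2 fold change was 0.138 (adjusted p = 0.0382 from limma), and with WT replicates 1 and 2 alone it was 0.040.

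*RNR3*, the gene of the damage-induced large subunit, read 13.96 and 14.02 in *tup1Δ* in DMSO, against 11.57, 11.73, 11.48 and 11.51 in WT in DMSO. The groups were separated by more than 2 units on the log2 scale. The log2 fold change was 2.42 (limma, adjusted p = 9.47e-10, SE 0.07), which put *RNR3* in place 45 of 5769 genes ordered by fold change, and the exact permutation test over arrays gave p = 0.0667 (two-sided), the smallest p that 2 arrays against 4 allow. Within each array, the *RNR3* value minus the *RNR1* value was 2.33 higher in *tup1Δ* than in WT, with SDs of 0.05 and 0.07 over the arrays. *RNR1* and *RNR3* are close paralogs and could share hybridization, so their separate values carry that uncertainty; such sharing was not tested.

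Of the small subunit genes, *RNR2* read 14.43 and 14.43 in *tup1Δ* in DMSO, against 13.47, 13.47, 13.48 and 13.53 in WT in DMSO. *RNR4* read 14.27 and 14.30 in *tup1Δ*, against 13.35, 13.48, 13.34 and 13.32 in WT. In both genes each *tup1Δ* array was above every WT array by a margin several times the spread within either group. The log2 fold change was 0.94 for *RNR2* (limma, adjusted p = 7.31e-08, SE 0.050) and 0.92 for *RNR4* (limma, adjusted p = 1.58e-05, SE 0.09). Both stayed below the fold threshold, and neither was called. Rnr2 and Rnr4 form one heterodimer, and the strain difference of the 2 genes differed by only 0.025 (two-sided exact permutation test of the per-array difference, p = 0.733). In *tup1Δ* their group means were above those of 97.4% to 98.3% of genes, a range in which array signals can be compressed and changes understated.

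*HUG1* read 10.77 and 10.89 in *tup1Δ* in DMSO, against 8.34, 8.31, 8.26 and 8.23 in WT in DMSO. In WT the gene lay at the edge of the low end of the array, with 1 of the 4 arrays inside the range of absent genes, so that the *tup1Δ* arrays measured the gene well above that range and the WT arrays hardly did. The log2 fold change was 2.55 (limma, adjusted p = 6.07e-11, SE 0.06), in place 36 of 5769 genes, and may be understated for that reason. *HUG1* exceeded *RNR3* in its change by 0.13 in DMSO (two-sided exact permutation test of the per-array difference, p = 0.133). In all, 5 of 5 genes had *tup1Δ* values that did not overlap the WT values, all higher, where 22.7% of all genes were higher without overlap.

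**Figure D2:**
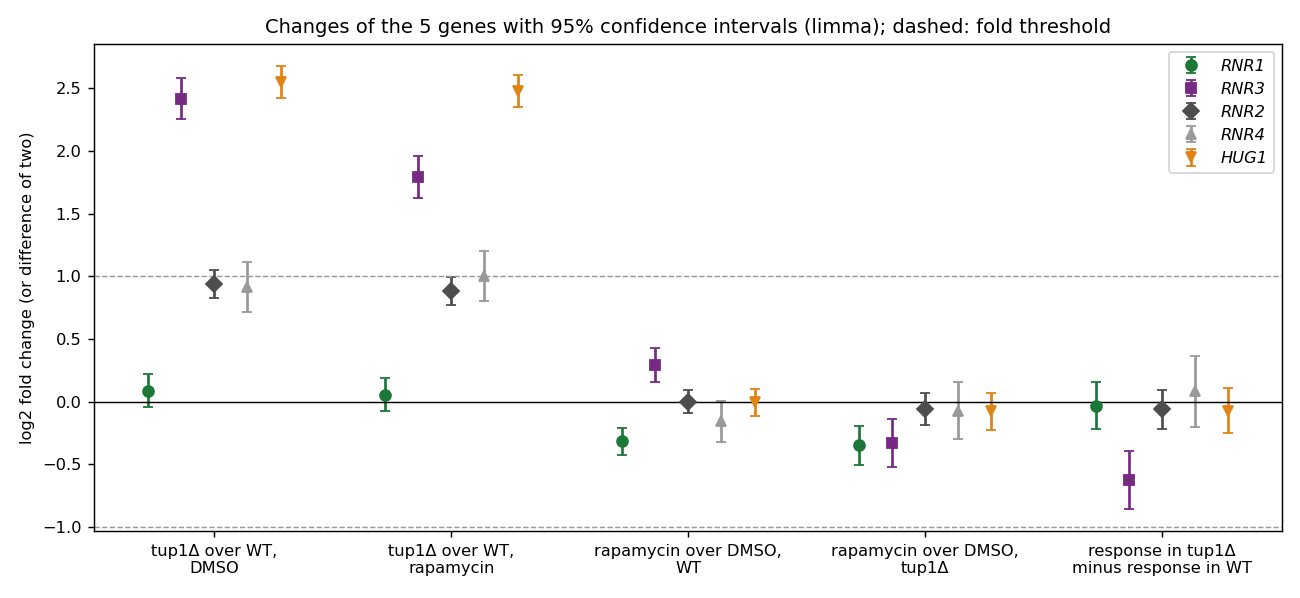
Log2 fold changes of the 5 genes in the 4 comparisons, with the response in *tup1Δ* minus that in WT in the last column, and 95% confidence intervals from limma. *HUG1* and *RNR3* lie above the fold threshold of 1 in both strain comparisons, *RNR2* and *RNR4* lie close to it, and only the interval of *RNR3* in the last column excludes 0.

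In rapamycin the strain difference was of the same order for *HUG1*, *RNR2* and *RNR4* and smaller for *RNR3*. Again 2 of the 5 genes were called higher in *tup1Δ*, where 4.52% of all genes were. At an adjusted p alone there were 4 of 5, where 16.2% of all genes were higher and 27.5% were lower, and 4 of 5 had no overlap between the strains, where 21.4% of all genes were higher without overlap. The median log2 fold change of the 5 genes was 0.999, beside -0.090 over all genes. The 2 strain comparisons use different arrays but the same strains.

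*HUG1* read 10.79 and 10.71 in *tup1Δ* in rapamycin, against 8.31, 8.21, 8.31 and 8.28 in WT in rapamycin, a log2 fold change of 2.48 (limma, adjusted p = 6.15e-11, SE 0.06). *RNR3* read 13.75 and 13.57 in *tup1Δ*, against 11.88, 11.85, 11.83 and 11.92 in WT, a log2 fold change of 1.79 (limma, adjusted p = 7.99e-09, SE 0.07). For both genes the strains stayed far apart. *HUG1* exceeded *RNR3* in its strain difference by 0.68 here (two-sided exact permutation test of the per-array difference, p = 0.0667, the smallest that 2 arrays against 4 allow).

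*RNR2* read 14.41 and 14.33 in *tup1Δ* in rapamycin, against 13.55, 13.43, 13.48 and 13.50 in WT in rapamycin, a log2 fold change of 0.88 (limma, adjusted p = 1.14e-07, SE 0.050). *RNR4* read 14.15 and 14.28 in *tup1Δ*, against 13.19, 13.44, 13.12 and 13.11 in WT, a log2 fold change of 0.999 (limma, adjusted p = 6.23e-06, SE 0.09). *RNR4* thus lay just under the fold threshold, and was called without WT replicate 2 in rapamycin, which read highest of the WT arrays (log2 fold change 1.07), and without *tup1Δ* replicate 1 in rapamycin (1.06). *RNR1* read 13.69 and 13.56 in *tup1Δ*, against 13.60, 13.63, 13.50 and 13.54 in WT, and the strains overlapped. Its log2 fold change was 0.057 (95% confidence interval -0.077 to 0.19, adjusted p = 0.470 from limma).

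Rapamycin itself moved these genes little, with none of the 5 called in WT, where 13.2% of all genes were called. The response of WT was a lower *RNR1* and a higher *RNR3*, 1.25-fold for *RNR1* and 1.23-fold for *RNR3*, with no detectable change of *RNR2* and *HUG1*. At an adjusted p alone 1 gene was higher, where 37.8% of all genes were, and 1 was lower, where 28.4% were. The groups did not overlap for the same 2 of the 5 genes, where 59.5% of all genes did not overlap. The median log2 fold change of the 5 genes was -0.0061, beside 0.056 over all genes.

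The log2 fold change of *RNR1* in WT was -0.32 (limma, adjusted p = 0.000163, SE 0.05). Between arrays of the same culture, the difference (rapamycin minus DMSO) was -0.32, -0.32, -0.36 and -0.27, lower in 4 of 4 cultures. *RNR3* had a log2 fold change of 0.30 (limma, adjusted p = 0.00124, SE 0.06). Its differences within cultures were 0.31, 0.12, 0.35 and 0.41, higher in 4 of 4 cultures and smallest in replicate 2. Exchanging the treatments inside each culture in an exact permutation test, two-sided, returned p = 0.125 for either gene, the smallest p that 4 cultures allow, and with the arrays taken as independent p = 0.0286 (two-sided), the smallest that 4 against 4 allow. Within each array, *RNR3* minus *RNR1* was 0.61 higher in rapamycin than in DMSO, with no overlap between the groups.

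*RNR4* was lower in rapamycin in 4 of 4 cultures, by amounts between 0.037 and 0.22, but its log2 fold change of -0.16 did not pass the test (95% confidence interval -0.32 to 0.0076, adjusted p = 0.0855 from limma). With the culture as a block the adjusted p was 0.0161, and without WT replicate 2 in rapamycin the log2 fold change was -0.23 (adjusted p = 0.00316 from limma). *RNR2* had a log2 fold change of 0.0013 (95% confidence interval -0.088 to 0.091) and *HUG1* of -0.0061 (95% confidence interval -0.11 to 0.098). *HUG1* read between 8.21 and 8.34 in WT in both treatments, which left the array little room to show a lower level.

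In *tup1Δ*, none of the 5 genes was called between rapamycin and DMSO, where 11.9% of all genes were. *RNR1* and *RNR3* were lower in rapamycin at an adjusted p alone, where 23.5% of all genes were. *RNR1* had a log2 fold change of -0.35 (limma, adjusted p = 0.00152, SE 0.07), close to that in WT. *RNR3* had a log2 fold change of -0.33 (limma, adjusted p = 0.00801, SE 0.09), opposite in sign to that in WT. The differences of *RNR3* between arrays of the same replicate number were -0.21 and -0.44. Without replicate 2 in DMSO the log2 fold change of *RNR3* was -0.30 (adjusted p = 0.0552 from limma), and without replicate 2 in rapamycin it was -0.24 (adjusted p = 0.0832 from limma). Each of these fits left 1 array in a group, which was assumed to vary like the other groups. *RNR2* (-0.057), *RNR4* (-0.071) and *HUG1* (-0.077) had log2 fold changes within their standard errors of 0 or little beyond, and 2 arrays against 2 cannot give an exact permutation p below 0.333.

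**Figure D3:**
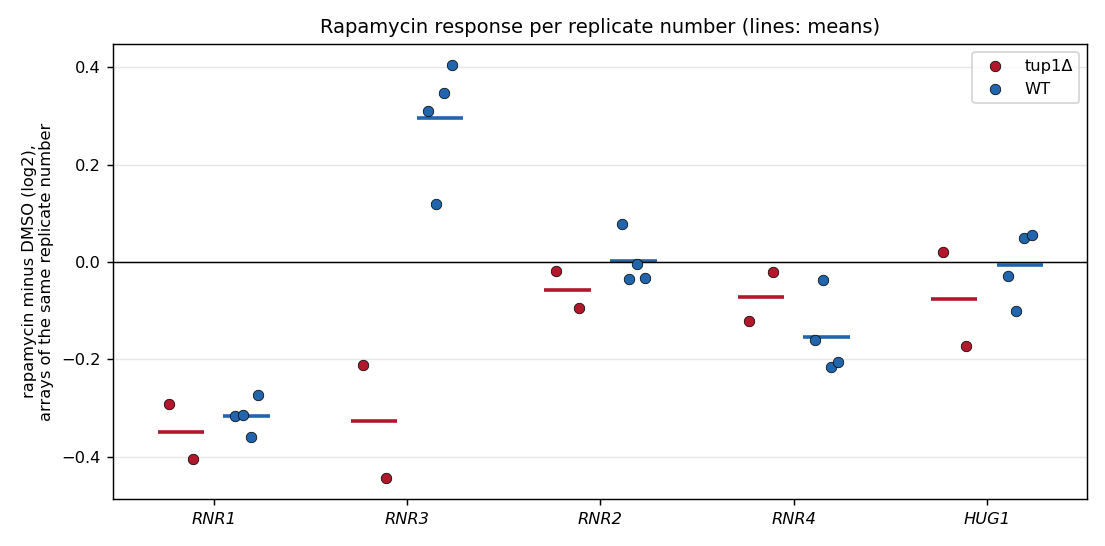
Rapamycin minus DMSO (log2) for each gene, between arrays of the same strain and replicate number, with the mean as a line. *RNR1* is below 0 in all 6 pairs, and *RNR3* is below 0 in the 2 *tup1Δ* pairs and above 0 in the 4 WT pairs.

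The difference between the strains in the response to rapamycin was tested as an interaction. None of the 5 genes was called, where 1.16% of all genes were, and *RNR3* alone had an adjusted p under 0.05, where 5.77% of all genes did. Its response in *tup1Δ* minus that in WT was -0.62 (95% confidence interval -0.86 to -0.39, adjusted p = 0.00506 from limma). With WT replicates 1 and 2 alone it was -0.54 (adjusted p = 0.0285 from limma), with WT replicates 3 and 4 alone it was -0.70 (adjusted p = 0.000290 from limma), and with the culture as a block the adjusted p was 0.0127. Across the alternatives this difference lay between -0.71 and -0.54, where those that changed only the fold threshold reuse the main fit. The order of the *RNR3* levels was *tup1Δ* in DMSO (13.99 ± 0.04, SD, n = 2), *tup1Δ* in rapamycin (13.66 ± 0.12, SD, n = 2), WT in rapamycin (11.87 ± 0.04, SD, n = 4) and WT in DMSO (11.57 ± 0.11, SD, n = 4), with no overlap between neighbours. The group means of *RNR3* in *tup1Δ* were above those of 92.1% to 95.4% of genes, and the part of signal compression in the smaller rapamycin value was not tested. For *RNR1* the difference was -0.032 (95% confidence interval -0.22 to 0.16), for *RNR2* -0.059, for *HUG1* -0.071 and for *RNR4* 0.084.

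Across the 12 arrays, *RNR2*, *RNR3*, *RNR4* and *HUG1* had Pearson correlations with each other between 0.946 and 0.997, and *RNR1* had correlations with them between 0.173 and 0.344. These 12 points share the separation of the strains, which sets most of the first range. With group means taken out, the correlations among the 4 genes ran from -0.676 (*RNR2* with *RNR4*) to 0.535 (*RNR3* with *HUG1*). Those of *RNR1* with them ran from -0.063 (*RNR2*) to 0.655 (*RNR3*), the highest of all pairs. These values rest on 2 or 4 arrays per group, with WT replicates 3 and 4 nearly identical. They cannot show whether the genes vary together within groups. The 3 genes whose values were most like those of *HUG1* were YMR206W (r = 0.999), *SHC1* (0.999) and *FMP48* (0.998). For *RNR3* they were *ALP1* (0.994), YOR389W (0.992) and YMR206W (0.991), and for *RNR2* they were *FMP48* (0.998), *HUG1* (0.997) and YMR206W (0.997). For *RNR4* they were *SUC2* (0.986), *FLO1* (0.984) and *HXT4* (0.983), and for *RNR1* *SWI1* (0.990), *NUP120* (0.988) and *SEC14* (0.988).

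The direct regulators of the enzyme and of its genes moved by less than the fold threshold in every comparison, and 0 of 8 were called in *tup1Δ* compared to WT in DMSO, where 4.13% of all genes were called higher. At an adjusted p alone 5 of the 8 were higher in DMSO, where 15.3% of all genes were, and 5 in rapamycin, where 16.2% were. None was lower at an adjusted p alone, where 27.3% of all genes were in DMSO and 27.5% in rapamycin. *CRT1*, the gene of the repressor that recruits Tup1-Cyc8, read 11.11 and 11.04 in *tup1Δ* in DMSO, against 10.27 to 10.47 in WT in DMSO, a log2 fold change of 0.72 (adjusted p = 0.000954 from limma). The strains were also apart in rapamycin, at 0.64 (adjusted p = 0.00204 from limma). There *CRT1* read 11.27 and 11.16 in *tup1Δ*, against 10.77, 10.79, 10.40 and 10.33 in WT replicates 1 to 4, so the size depends on the WT pair. *WTM2*, whose product is a relative of the Wtm1 nuclear anchor, had 0.71 in DMSO and 0.81 in rapamycin, and *WTM1*, whose product holds the small subunit in the nucleus, had 0.43 and 0.23. In DMSO *WTM2* read 12.19 and 12.12 in *tup1Δ*, against 11.67, 11.65, 11.24 and 11.20 in WT replicates 1 to 4.

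The genes of the other protein inhibitors were not called in either strain comparison. *SML1*, whose product inhibits the large subunit and which is the neighbour of *HUG1* on chromosome XIII, had a log2 fold change in *tup1Δ* of 0.080 in DMSO (adjusted p = 0.307 from limma) and 0.20 in rapamycin (adjusted p = 0.0213 from limma). *DIF1*, whose product brings the small subunit into the nucleus, had 0.35 (adjusted p = 0.0191 from limma) and 0.52 (adjusted p = 0.00249 from limma). *DUN1*, the kinase that acts on Crt1, Sml1 and Dif1, had 0.28 in DMSO and 0.026 in rapamycin. In WT it was higher in rapamycin, at 0.65 (adjusted p = 3.10e-05 from limma), while *WTM2* was lower, at -0.67, and *SML1* was lower, at -0.18 (adjusted p = 0.00726 from limma).

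**Figure D4:**
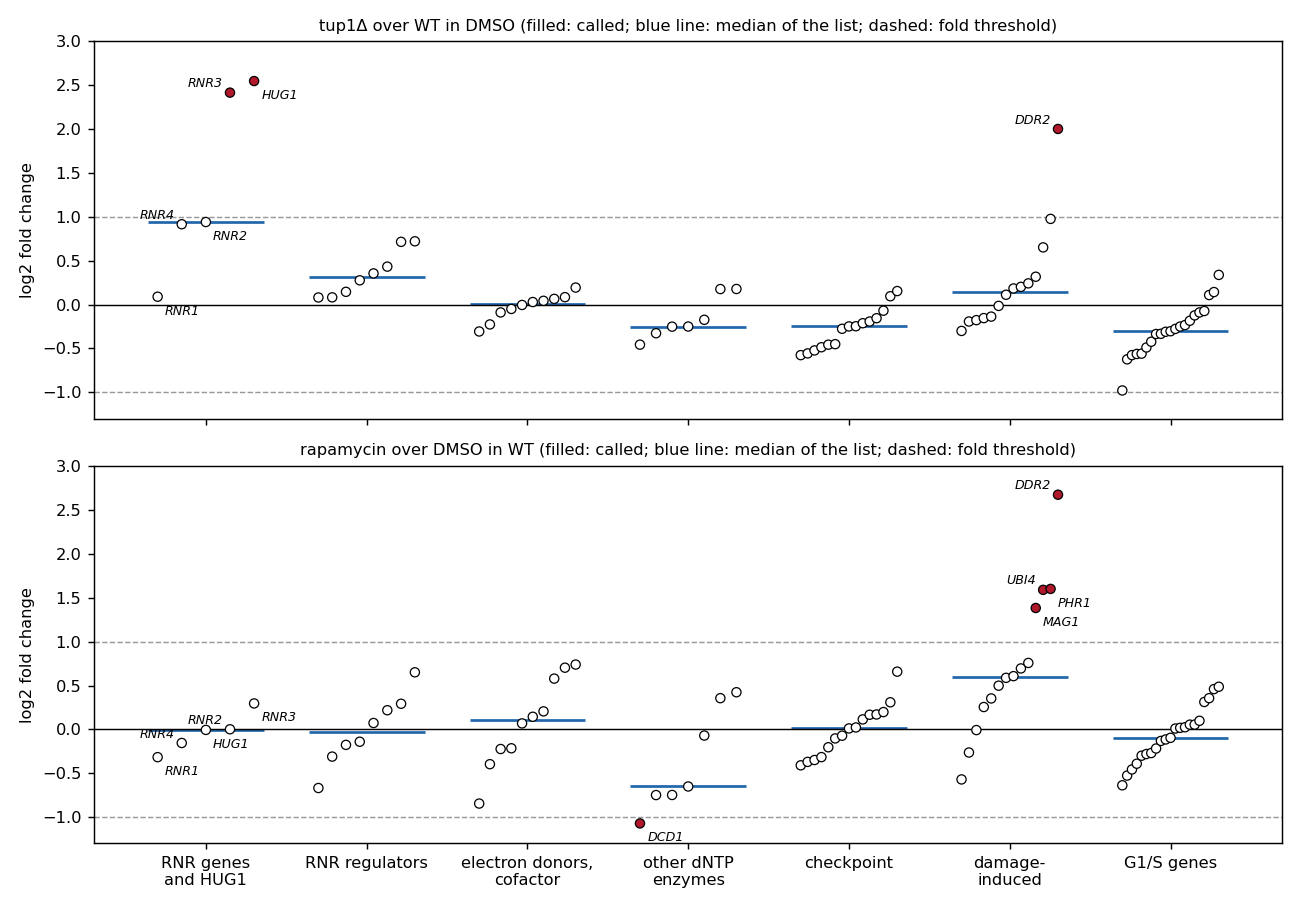
Log2 fold changes of the 5 genes and of 6 lists of related genes, in *tup1Δ* over WT in DMSO (top) and rapamycin over DMSO in WT (bottom), with called genes filled and list medians as lines. In the strain comparison *RNR3*, *HUG1* and *DDR2* are above the fold threshold, and in the rapamycin comparison *DDR2*, *PHR1*, *UBI4* and *MAG1* are above it and *DCD1* is below the lower one.

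Among the other genes linked to dNTP supply and DNA damage, *DDR2* alone was called higher in *tup1Δ*, and none was called lower. Over all genes in DMSO, 4.13% were called higher, 15.3% were higher and 27.3% lower at an adjusted p alone, and the median log2 fold change was -0.078. In DMSO, 0 of 15 checkpoint genes were called, with a median log2 fold change of -0.25 and 6 lower and 0 higher at an adjusted p alone. Of 21 G1/S genes of MBF and SBF, the class to which *RNR1* belongs, 0 were called, with a median of -0.30 and 14 lower and 1 higher at an adjusted p alone. Of 10 genes for the electron donors and the metal cofactor of the enzyme, 0 were called, with a median of 0.012. Of 7 genes for other steps of dNTP synthesis, 0 were called, with a median of -0.25. Of 14 genes known to be induced by DNA damage, *DDR2*, which also answers to many other stresses, was called. It had a log2 fold change of 2.00 in DMSO and 2.01 in rapamycin. The median of the list was 0.15 in DMSO and 0.0087 in rapamycin. Of the 14, 7 were higher and 2 lower at an adjusted p alone in DMSO. By the same measure 3 were higher in rapamycin, where 16.2% of all genes were, and 2 lower, where 27.5% were. *CDC21*, which makes dTMP, is in 2 of these lists.

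In WT, 11 of the 14 damage-induced genes were higher in rapamycin at an adjusted p alone, where 37.8% of all genes were. Another 2 were lower, where 28.4% of all genes were. With the fold threshold none was called lower, and 4 were called higher, where 5.41% of all genes were. These were *DDR2* (log2 fold change 2.68), *PHR1*, the photolyase gene (1.60), *UBI4*, a polyubiquitin gene (1.59), and *MAG1*, a DNA glycosylase gene (1.38), and the same 4 were called in *tup1Δ*, where 5.34% of all genes were. The median of the list was 0.60 in WT and 0.59 in *tup1Δ*, while *RNR3* and *HUG1* had 0.30 and -0.0061 in WT. Of the other genes of dNTP synthesis, *DCD1*, the dCMP deaminase gene, was called lower in WT (-1.07, adjusted p = 0.000134 from limma), where 7.8% of all genes were, and had -0.77 in *tup1Δ* (not called), and the difference between the strains did not pass the test. The median of that list was -0.65 in WT. None of the 21 G1/S genes was called in rapamycin in WT, with a median of -0.096 beside the -0.32 of *RNR1*.

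The genes next to the 5 were looked up after these values were seen. Of the 10 protein-coding neighbours, 0 were called higher in *tup1Δ* compared to WT in DMSO, where 4.13% of all genes were. *FIS1*, a gene of mitochondrial fission next to *RNR3*, had a log2 fold change of 0.95 in DMSO (adjusted p = 3.90e-05 from limma) and 0.80 in rapamycin, whereas YIL067C on the other side of *RNR3* had -0.024 in DMSO. *OKP1*, a kinetochore gene next to *RNR4*, had -0.65 in DMSO (adjusted p = 0.000191 from limma), and *TIM13* on its other side had 0.078. *NTE1* and *SML1*, on either side of *HUG1*, had 0.42 (adjusted p = 0.136 from limma) and 0.080 in DMSO.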

How the data were processed

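The authors hybridized Cy3-labeled cDNA to NimbleGen *S. cerevisiae* arrays, quantified the scans with NimbleScan and deposited log2 values, 1 for each gene on each array, after RMA normalization in a set that also held other arrays from their laboratory. Because RMA equalizes the distributions, a shift shared by all genes is lost. The array medians ran from 11.48 to 11.52 and single values from 7.85 to 15.52. Precision is limited by how few arrays there were. Probe signals were not used here, so no detection flag was available. Of 5872 entries, 103 had no value on any array and 0 had values on only some, which left 5769. ORF names were matched to symbols of assembly R64 for 5763 genes, and 6 kept the ORF name.

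Values were taken as deposited and fitted with lmFit and eBayes (limma 3.58.1, R 4.3.3), with 1 mean per group and 8 residual and 2.8 prior degrees of freedom, by a script tested on simulated data. P-values were adjusted over all genes by Benjamini-Hochberg and measure the spread between arrays of the same group, from 1 strain each. In WT this spread joins the nearly identical replicates 3 and 4 with a larger difference between the pairs. The main fit did not pair the arrays of a divided culture. The members and the gene lists were chosen with earlier results of these data known. Named genes were the 5 members, *TUP1*, the 6 regulators *SML1*, *DIF1*, *CRT1*, *DUN1*, *WTM1* and *WTM2*, list genes where called, and the 3 genes best correlated with each member. Genes of mating type and neighbouring genes were named in addition.

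WT arrays of the same replicate number come from one divided culture, by the study's design text. Their deviations from group means correlated at 0.745, 0.119, 0.531 and 0.535 for replicates 1 to 4, and at 0.0637 for *tup1Δ*. The alternatives were other normalizations, filters, thresholds, priors, subsets of WT arrays, a replicate block and each array left out in turn. The culture as a random block in the strain comparisons was added after seeing the data.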

Additional observations from a re-analysis of the deposited data

Results flagged for a closer look

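The rapamycin response of *RNR3* differed between the strains by the test of the interaction. The log2 response in *tup1Δ* minus that in WT was -0.62 (adjusted p = 0.00506 from limma), with every *tup1Δ* pair of arrays below 0 and every WT pair above 0. In the WT arrays in rapamycin, *DDR2* on replicate 2 lay far from the others, at 10.98 against 11.25 to 11.26, a gap of 0.986 of the range of the group. This was the only such case in 42 groups of 4 WT arrays of 21 genes, where chance, at about 1 in 20, gives about 2.1. That rate takes the 4 arrays as independent, whereas WT replicates 3 and 4 were nearly identical, so it is only a rough guide. *DDR2* had a log2 fold change of 2.68 in rapamycin in WT.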

How the results depend on the processing

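Without the dimmest 25% of genes *HUG1* was not tested, and fewer genes were tested, of which 198 were called between the strains in rapamycin and 32 in the test of the difference. With no fold threshold 2457 genes were called between the strains in DMSO, 2519 between them in rapamycin, 3819 between treatments in WT, 3062 between treatments in *tup1Δ* and 333 in the test of the difference. Raising it to 1.5 left 148, 168, 395, 344 and 26 in the same order. With no fold threshold *RNR2* (0.94) and *RNR4* (0.92) were called for the strains in DMSO, *RNR2* (0.88) and *RNR4* (0.999) for the strains in rapamycin, *RNR1* (-0.32) and *RNR3* (0.30) between treatments in WT, *RNR1* (-0.35) and *RNR3* (-0.33) between treatments in *tup1Δ*, and *RNR3* (-0.62) for the difference. *RNR4* for the strains in rapamycin, at 0.999, also passed after quantile normalization (1.00), median centring (1.01), the shift to the median gene (1.08) and with only WT replicates 3 and 4 (1.10), and with arrays left out in turn it lay between 0.94 and 1.07.

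Values near 0 changed sign. *RNR2* for rapamycin in WT was -0.027 after median centring, -0.044 after the shift to the median gene and -0.019 with only WT replicates 3 and 4, and between -0.0185 and 0.0205 with arrays left out. *HUG1* for rapamycin in WT was 0.053 with only WT replicates 3 and 4, and between -0.025 and 0.018 with arrays left out. With arrays left out, *RNR1* lay between -0.0041 and 0.12 for the strains in rapamycin and between -0.093 and 0.029 for the difference in response. The cause was not tested.

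Under the replicate block, no call of the 5 genes changed in any of the 5 comparisons. For the treatments and the difference in response this was fixed in advance. There the block leaves the log2 fold changes as they were, all under 1 in size. Its adjusted p can move, and that of *RNR4* for rapamycin in WT fell under 0.05 (limma). The log2 fold change of *RNR4* for the strains in rapamycin was 0.97 with the replicate number as a random block. Of 600 values of the 5 genes under alternatives, 572 kept their direction and their side of the threshold, 15 passed it newly and 13 changed sign. Many of the 600 could not change direction. Other thresholds, other priors, a fit to only the groups compared and arrays left out of other groups leave the log2 fold change as it was. A fit to only the groups compared was not run for the difference in response, which uses all groups.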
